A study of Mus musculus with 6 samples.

Results

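The insulin-like growth factor (IGF) genes described here are the ligand genes Igf1 and Igf2, the insulin receptor substrate (IRS) adaptor genes Irs1 and Irs2, and the IGF binding protein genes Igfbp2, Igfbp3, Igfbp4, Igfbp5, Igfbp6 and Igfbp7. They were chosen by name: a probe set belonged to the family where the platform annotation gave it exactly 1 gene symbol and that symbol was on the list. This gave 10 genes of 18193 and 23 probe sets of the 45101 on the array. The samples were 344SQ cells, a metastatic mouse lung adenocarcinoma line, carrying a PIK3CA shRNA (3 arrays) or a control shRNA (3 arrays). An shRNA is a short hairpin RNA that lowers the transcript it matches, here that of Pik3ca, the catalytic subunit p110-alpha of phosphoinositide 3-kinase (PI3K). Vectors were delivered by lipid transfection and all cells grew in RPMI medium with serum. The labels do not say how many hairpins were used, whether cells were pooled or cloned, or whether replicates were separate cultures, so the p-values cover no more than the scatter of these arrays, part or all of which may be technical.

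IGF1 and IGF2 are secreted ligands that bind the IGF1 receptor tyrosine kinase. The activated receptor phosphorylates IRS1 and IRS2, docking proteins whose phosphotyrosines recruit the regulatory subunit of PI3K, so the IRS proteins stand directly between the receptor and the enzyme that was knocked down. IGF binding proteins hold the ligands in the extracellular space, prolong their life or keep them from the receptor, and have actions of their own on adhesion and growth. Downstream, AKT keeps FOXO transcription factors out of the nucleus, and Irs2 and Igfbp1 are known FOXO target genes in liver.

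Promoter sequence is shown for the adaptor genes because they hold the insulin-response type of motif that was searched for, and for Igfbp7 and Igfbp5 because these were the family members with a probe set that passed the test. Each run is the 250 bases before the annotated start, 5′ to 3′ on the strand of the gene, from RefSeq on GRCm38.p6. Capitals mark CAAAACA, the insulin-response type of element, which reads TGTTTTG where it lies on the opposite strand as here. The Irs1 run is chr1:82291440-82291689, the Irs2 run chr8:11008930-11009179, the Igfbp7 run chr5:77408046-77408295 and the Igfbp5 run chr1:72874866-72875115, all on the minus strand.
Irs1: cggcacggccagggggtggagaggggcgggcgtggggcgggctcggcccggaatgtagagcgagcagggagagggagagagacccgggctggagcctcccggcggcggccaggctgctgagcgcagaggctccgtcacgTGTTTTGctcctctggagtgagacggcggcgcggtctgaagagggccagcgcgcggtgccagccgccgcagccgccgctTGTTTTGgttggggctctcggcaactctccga
Irs2: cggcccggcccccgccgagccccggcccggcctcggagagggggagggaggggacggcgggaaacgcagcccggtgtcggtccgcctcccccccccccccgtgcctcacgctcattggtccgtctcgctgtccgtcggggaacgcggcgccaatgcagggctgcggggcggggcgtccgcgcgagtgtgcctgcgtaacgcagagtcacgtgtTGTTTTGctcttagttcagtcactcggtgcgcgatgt
Igfbp7: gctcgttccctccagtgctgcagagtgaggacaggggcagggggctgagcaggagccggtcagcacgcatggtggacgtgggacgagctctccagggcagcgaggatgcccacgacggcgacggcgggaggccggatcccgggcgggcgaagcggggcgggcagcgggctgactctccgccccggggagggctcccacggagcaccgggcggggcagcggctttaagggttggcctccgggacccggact
Igfbp5: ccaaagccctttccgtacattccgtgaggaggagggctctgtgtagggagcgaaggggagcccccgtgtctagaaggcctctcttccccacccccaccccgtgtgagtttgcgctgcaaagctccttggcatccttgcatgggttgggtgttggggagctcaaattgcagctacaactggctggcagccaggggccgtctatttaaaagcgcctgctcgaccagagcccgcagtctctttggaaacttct

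All 10 genes matched the promoter table by symbol, with 14 entries. CAAAACA and the FOXO-type motif GTAAACA were searched on both strands, and the letters of the motifs do not overlap in any run shown. CAAAACA was found with first bases at -111 and -32 in Irs1 and at -37 in Irs2, counted back from the start. It was in none of the 12 other entries, and GTAAACA was in none of the 14. Over all 32851 promoter entries of the same length, 5.56% held CAAAACA and 3.17% held GTAAACA. These matches describe letters in a window and nothing about a factor's binding. The Igfbp7 run had 74.0% G and C with 26 CpG pairs and the Igfbp5 run 58.8% with 10, where the median over all entries was 52.4% with 6.

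Median intensities were 134.6 to 135.0 per array, and arrays correlated at 0.982 to 0.984 within groups and 0.974 to 0.977 between them (Pearson's r across probe sets, which are not independent). Pik3ca averaged 1236 ± 13.1 in PIK3CA shRNA cells and 2379 ± 66.3 in control shRNA cells (SD, n = 3 each), or 51.9% of control by its brightest probe set. Other Pik3ca probe sets stood at 47.7%, 48.7%, 59.4% and 61.1% of control. The dimmest stood at 96.6% and did not pass (limma adjusted p = 0.984 over all probe sets). Of the 7 epithelial markers, 0 were called in either direction by limma at adjusted p 0.05 (1 at an unadjusted p under 0.05). Their summed intensity was 43304 to 44111 in PIK3CA shRNA cells and 42426 to 45174 in control shRNA cells, most of it from Krt8, Krt18, Cdh1 and Krt19. Sums of the 10 fibroblast and stromal markers, cell types known to make IGF binding proteins, were 599 to 862 in PIK3CA shRNA cells and 787 to 834 in control shRNA cells, with 1 marker lower (Dcn) and 0 higher by limma (2 at an unadjusted p under 0.05). The other of these, Lum, averaged 71.4 in PIK3CA shRNA cells and 99.5 in control shRNA cells with no overlap (limma adjusted p = 0.0900). Of 7 endothelial, 7 leukocyte and 6 muscle and adipocyte markers limma called 0 (2 endothelial and 0 of the others at an unadjusted p under 0.05). Each of the 10 stromal markers had a mean intensity below the median gene and Pdgfrb was below 16 in both groups. No marker was listed at 0, and their part in the results was not tested.

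Over the 10 family genes, each read by its brightest probe set, Igfbp7 was the 1 gene that limma called, at 123% of control. A dimmer Igfbp5 probe set, outside this count, averaged 285% of control and passed in the fit over all probe sets (limma adjusted p = 0.00421). Limma with Benjamini-Hochberg adjustment over all genes placed 1 of 10 past adjusted p 0.05, Igfbp7, which rose, and 0 fell. At an unadjusted p under 0.05 the count was also 1 higher and 0 lower. The background in the same comparison was 11.5% of all genes (5.88% higher and 5.62% lower), so the family's share of 10% was near it. The median change of the 10 genes was -0.07 on the log2(intensity + 16) scale, beside a median of -0.01 for all genes. Igfbp7 (higher) and Igf2 (lower) were the 2 of 10 genes with no overlap between groups, and the background for this was 33.1% of all genes (16.1% higher and 17.0% lower). Every change is the PIK3CA shRNA mean minus the control shRNA mean. Adding 16 before the log understates the change of dim genes. In RNA from whole cultures, fewer cells of a type and less RNA per cell cannot be told apart.

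**Figure D1:**
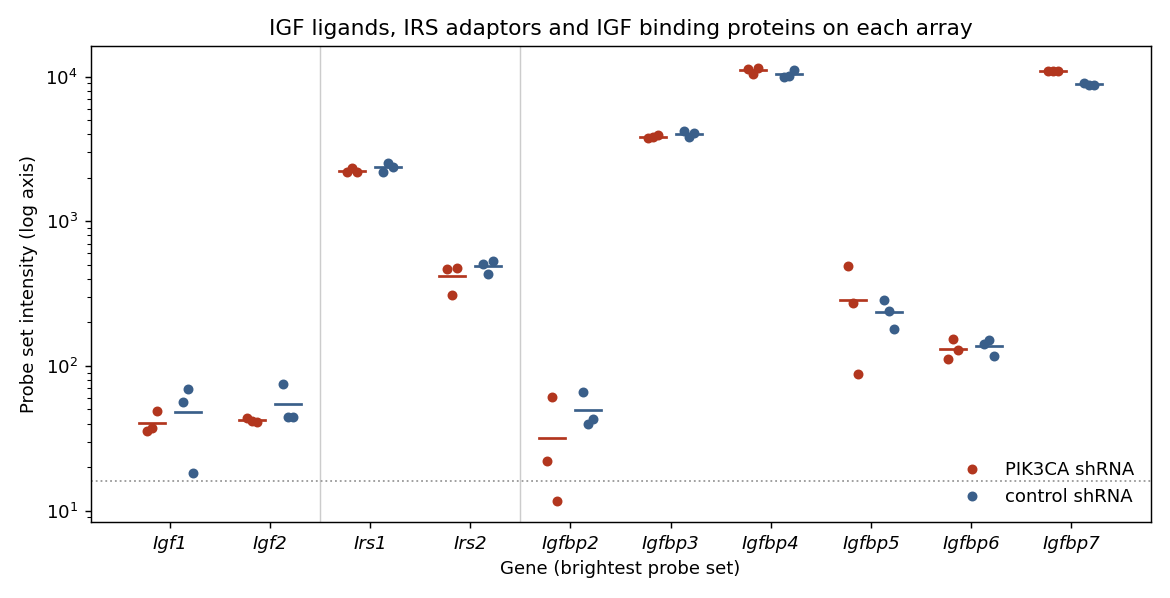
Intensity of the brightest probe set of each family gene on every array (log axis), with PIK3CA shRNA left of control shRNA, horizontal bars at group means and a dotted line at the pseudocount of 16. Igfbp7 is separated by group at 10854 to 10921 in PIK3CA shRNA cells against 8685 to 9030 in control shRNA cells, and the ligand genes and Igfbp2 are the dimmest, between 11.7 and 75.3.

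The ligand genes were dim. Igf1 read 35.6, 37.5 and 48.8 on the PIK3CA shRNA arrays, against 56.2, 69.8 and 18.1 on the control shRNA arrays. The groups overlapped, with the lowest value on a control array. Its change was -0.08 with a 95% interval from -0.97 to 0.81. It was -0.48 without control shRNA replicate 3 and 0.18 without control shRNA replicate 2, not past the threshold in either. The other 3 Igf1 probe sets stood at -0.04 to 0.11 with intensities of 3.74 to 57.4 in PIK3CA shRNA cells and 4.63 to 56.9 in control shRNA cells. The intervals of the Igf1 probe sets were wide beside those of the bright genes below.

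Igf2, the imprinted fetal growth ligand, read 43.4, 41.4 and 41.2 in PIK3CA shRNA cells, against 75.3, 44.0 and 44.6 in control shRNA cells. All 3 PIK3CA shRNA values were below the control values, by a narrow gap apart from control replicate 1. The change was -0.26 (standard error 0.18, limma adjusted p = 0.436), and without control shRNA replicate 1 it was -0.06. The other Igf2 probe set differed in sign at 0.64 (standard error 0.49, limma adjusted p = 0.518 over all probe sets). That second probe set read 28.0, 80.2 and 9.39 in PIK3CA shRNA cells, against 22.8, 11.4 and 10.5 in control shRNA cells, so its mean rested on PIK3CA shRNA replicate 2.

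Irs1, the adaptor that links IGF1 and insulin receptors to PI3K, read 2186, 2320 and 2185 in PIK3CA shRNA cells, against 2197, 2511 and 2359 in control shRNA cells. The groups overlapped. The change was -0.08 with a 95% interval from -0.26 to 0.11 (limma adjusted p = 0.584), and means were 2231 ± 77.7 in PIK3CA shRNA cells and 2355 ± 157 in control shRNA cells (SD, n = 3 each).

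Irs2, its close relative and the known FOXO target, read 467, 311 and 476 in PIK3CA shRNA cells, against 506, 432 and 530 in control shRNA cells. PIK3CA shRNA replicate 2 was the lowest of the 6 arrays, and the groups overlapped. The change was -0.24 with a 95% interval from -0.70 to 0.22 (limma adjusted p = 0.490), and without PIK3CA shRNA replicate 2 it was -0.05. Irs2 lies on chromosome 8, where the median change of the 512 brighter genes was -0.25. With each chromosome's median taken out of each array the change of Irs2 was 0.05.

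Of the binding protein genes, each by its brightest probe set, Igfbp7 was the one that passed. It encodes a secreted matrix-associated protein, also called angiomodulin, that binds IGFs weakly. Its brightest probe set read 10921, 10854 and 10899 in PIK3CA shRNA cells, against 9030, 8685 and 8769 in control shRNA cells. Every PIK3CA shRNA array was above every control array, and the spread within the PIK3CA shRNA group was small. Means were 10891 ± 34.1 in PIK3CA shRNA cells and 8828 ± 180 in control shRNA cells (SD, n = 3 each), which is 123% of control. The change was 0.30 (standard error 0.05, limma adjusted p = 0.0223, exact two-sided permutation p = 0.1, the smallest that 3 against 3 arrays allow).

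The Igfbp7 call was lost without any 1 array and with the mean of its probe sets. Leaving out any 1 of the 6 gave changes of 0.29 to 0.32 with limma adjusted p of 0.0633 to 0.0803, and the mean of its probe sets gave 0.25 (limma adjusted p = 0.131). A second Igfbp7 probe set read 238, 169 and 224 in PIK3CA shRNA cells, against 148, 178 and 142 in control shRNA cells. These overlapped through PIK3CA shRNA replicate 2, and the change was 0.39 (limma adjusted p = 0.203 over all probe sets). The third, dim probe set differed by 0.06 (limma adjusted p = 0.768). Igfbp7 lies on chromosome 5, where the median change of the 624 brighter genes was -0.15, opposite in sign to its own. Of its 10 neighbours, 1 was higher and 1 lower, with a median of -0.15. With chromosome medians removed Igfbp7 stood at 0.48 (limma adjusted p = 0.00893).

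**Figure D2:**
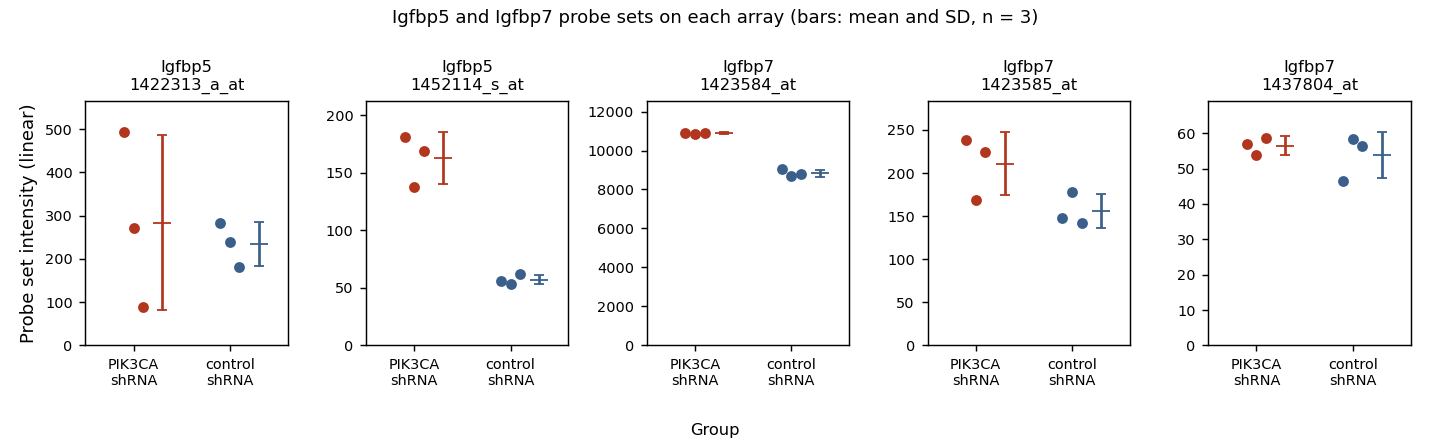
Linear intensity of each Igfbp5 and Igfbp7 probe set on every array, PIK3CA shRNA left of control shRNA, with group mean and SD (n = 3 each) beside the points. The groups are apart in the second Igfbp5 panel (138 to 181 against 53.7 to 61.7) and the first Igfbp7 panel, and overlap in the other 3.

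Igfbp5, which encodes a binding protein that attaches to extracellular matrix, gave different answers by probe set. Its brighter probe set read 493, 271 and 88.0 in PIK3CA shRNA cells, against 284, 239 and 181 in control shRNA cells. The PIK3CA shRNA arrays held both the highest and the lowest value. The change was 0.00 with a 95% interval from -1.46 to 1.47. It was -0.52 without PIK3CA shRNA replicate 1 and 0.63 without PIK3CA shRNA replicate 3, not past the threshold in either.

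The dimmer Igfbp5 probe set read 181, 138 and 169 in PIK3CA shRNA cells, against 56.0, 53.7 and 61.7 in control shRNA cells. All 3 PIK3CA shRNA values were above all control values. The mean was 285% of control, and the change of 1.28 (standard error 0.11) passed limma over all probe sets (adjusted p = 0.00421). Without any 1 array the change ran from 1.21 to 1.38 and limma's adjusted p from 0.00838 to 0.0269, an alternative chosen after seeing the data. The suffix _s_at of its name marks a probe set whose probes can match several transcripts. The difference between the changes of the 2 probe sets was 1.28 (exact two-sided permutation p = 0.2, in a design whose smallest possible p is 0.1, so that this test could not pass 0.05). Igfbp5 is next to Igfbp2 among the tested genes on chromosome 1, where the median change of brighter genes was 0.00.

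Igfbp2, a binding protein often raised in tumours, was dim and scattered. It read 22.1, 61.2 and 11.7 in PIK3CA shRNA cells, against 65.6, 39.8 and 43.1 in control shRNA cells. The mean was 63.9% of control, the groups overlapped through PIK3CA shRNA replicate 2, and the change was -0.57 with a 95% interval from -1.57 to 0.42 (limma adjusted p = 0.443). Without that array it was -0.99, without PIK3CA shRNA replicate 3 it was -0.25, and it did not pass the threshold without any 1 array.

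Igfbp3, the main carrier of IGFs in serum and a p53 target in human cells, read 3736, 3834 and 3943 in PIK3CA shRNA cells, against 4185, 3802 and 4099 in control shRNA cells. The groups overlapped. Its change was -0.07 with a 95% interval from -0.23 to 0.09 (limma adjusted p = 0.569), and its other probe set stood at 0.02.

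Igfbp4, an inhibitory binding protein that is cleaved by the metalloproteinase pappalysin-1, had the most probe sets. The brightest read 11349, 10503 and 11543 in PIK3CA shRNA cells, against 9931, 10086 and 11146 in control shRNA cells, which overlap. Its change was 0.10 with a 95% interval from -0.09 to 0.29 (limma adjusted p = 0.483). The 6 probe sets lay between -0.01 and 0.10, with group means of 98.9% to 107% of control, although their intensities spanned 1198 to 11543 in PIK3CA shRNA cells and 1142 to 11146 in control shRNA cells.

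Igfbp6, which prefers IGF2 over IGF1, read 111, 154 and 130 in PIK3CA shRNA cells, against 141, 152 and 117 in control shRNA cells. The groups overlapped and both the highest and the lowest value were on PIK3CA shRNA arrays. Its change was -0.05 with a 95% interval from -0.40 to 0.31 (limma adjusted p = 0.871).

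Across all 23 probe sets of the family, 2 passed limma over all probe sets and both were higher, the Igfbp5 and Igfbp7 ones above. That is 8.70% beside a background of 7.27% of probe sets. The change was smaller than 0.2 in size in 16 of the 23, and the median was 0.00.

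**Figure D3:**
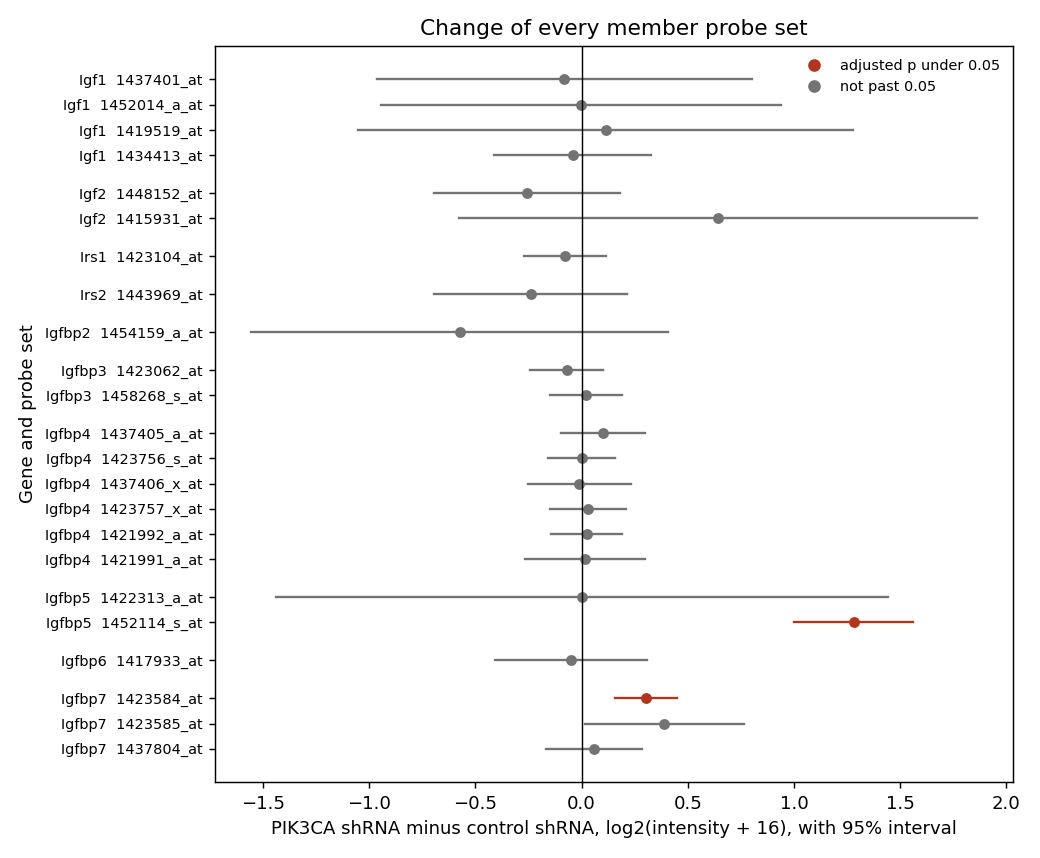
Change of each of the 23 family probe sets, as PIK3CA shRNA minus control shRNA in log2(intensity + 16), with unadjusted 95% intervals from the fit over all probe sets. The 2 points past adjusted p 0.05 (the dimmer Igfbp5 probe set at 1.28 and the brightest Igfbp7 probe set at 0.30) lie right of 0, while the 6 Igfbp4 intervals all include 0.

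Pattern likeness was taken as Pearson's r of log2 values over the 6 arrays, among 9096 genes above the median brightness. Closest to Igfbp7 were Psme1, a proteasome activator subunit gene (r of 0.9997), and Plekhb2, a pleckstrin homology domain gene (r of 0.9992). Of the genes searched, 704 had an r above 0.95 with Igfbp7. Igfbp7 was taken because its groups differed, so a high r follows for any bright gene that rose with little scatter. Shared regulation was not tested.

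The rest of the IGF axis was read from a list of 73 other genes, of which 66 were measured. Limma called 7 higher and 5 lower, 18.2% of the measured genes beside the background of 11.5%, and the median change was -0.02 beside -0.01 over all genes. The list was chosen with earlier results of these data known. Its share beside the background is therefore a description, and a response of the IGF axis as a whole was not tested. The groups did not overlap in 28 of the 66, 14 in each direction, where the background was 33.1% of all genes (16.1% higher and 17.0% lower).

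Among receptors, Igf1r, the signalling receptor for both ligands, read 2640, 2915 and 2525 in PIK3CA shRNA cells, against 2092, 2194 and 2112 in control shRNA cells. All PIK3CA shRNA arrays were higher. The mean was 126% of control and the change 0.33 (standard error 0.08, limma adjusted p = 0.0478). This call was lost without any 1 of the 6 arrays (limma adjusted p of 0.0769 to 0.133) and in the fit over all probe sets, where the same probe set had an adjusted p of 0.0695 and the other 4 lay between -0.18 and 0.29. As the mean of its probe sets Igf1r stood at 0.15.

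Insr, the insulin receptor, stood at 0.00 with a 95% interval from -0.13 to 0.14 (limma adjusted p = 0.973). It lies on chromosome 8, and with chromosome medians removed it was at 0.29 (limma adjusted p = 0.0389). Igf2r, which clears IGF2 by carrying it to lysosomes, averaged 85.1% of control at -0.22 with a 95% interval from -0.45 to 0.01 (limma adjusted p = 0.208).

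The 3 largest changes among the called genes of the list were in 2 secreted relatives of the binding proteins and in the growth hormone receptor. Insl6, an insulin-family ligand gene, stood at -1.08 (limma adjusted p = 0.0866) and Shc2, an adaptor gene, at 0.81 (limma adjusted p = 0.0679), neither past the threshold. Insl6 was dim, with means of 26.9 in PIK3CA shRNA cells and 71.1 in control shRNA cells. The other Shc2 probe sets stood at 0.13 and -0.09. Htra1, a secreted serine protease with an IGF-binding-protein type domain, read 2152, 2058 and 2066 in PIK3CA shRNA cells, against 3586, 3712 and 3634 in control shRNA cells. It fell to 57.4% of control, by 0.80 on the log2 scale (limma adjusted p = 0.00148), and its other probe set also passed at -0.57 (limma adjusted p = 0.0460 over all probe sets). Kazald1, a related secreted protein gene, read 72.2, 66.4 and 50.5 in PIK3CA shRNA cells, against 195, 190 and 230 in control shRNA cells. It fell to 30.8% of control (change -1.49, limma adjusted p = 0.00337). Neither gene's groups overlapped.

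Ghr, the growth hormone receptor whose signal drives IGF1 production in liver, read 4821, 5247 and 5462 in PIK3CA shRNA cells, against 2692, 2642 and 2681 in control shRNA cells. The groups were well apart. Ghr rose to 194% of control, a change of 0.95 (limma adjusted p = 0.00166), and all 3 of its probe sets passed, at 0.95 to 1.16. Hmga2, a chromatin protein gene that is known to regulate Igf2bp2, an Igf2 mRNA binding protein gene, rose by 0.51 (limma adjusted p = 0.00537), with 7812, 7705 and 7633 in PIK3CA shRNA cells, against 5286, 5570 and 5338 in control shRNA cells.

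Among docking adaptors besides IRS, Dok1 (0.35) and Dok4 (0.32), substrates of receptor tyrosine kinases, rose and Gab1 (-0.38), a docking protein that also recruits PI3K, fell. Irs4 stood at 0.01 and Irs3 was below 16 in both groups. Ptpn1, the phosphatase PTP1B that acts on the insulin receptor, was called higher (0.46) among genes grouped as acting on the receptor and IRS proteins. Grb14 (-0.38), a receptor inhibitor, and Ptpn11 (-0.33), the phosphatase SHP2, were called lower in that group. The second Ptpn1 probe set lay at -0.46 without passing. Plau, the urokinase gene, rose by 0.77 in the probe set taken for it. Its other probe set stood at 0.04 (limma adjusted p = 0.934 over all probe sets). The probe set taken averaged 171 against 124 for the other in PIK3CA shRNA cells. In control shRNA cells it was the dimmer, at 94.2 against 122. The choice of probe set, and with it the Plau call, therefore rested on the PIK3CA shRNA arrays. Limma adjusted p of these 7 genes ran from 0.00916 for Ptpn1 to 0.0392 for Dok4.

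Most of these smaller calls were lost without single arrays or with chromosome medians removed. Dok4 and Ptpn11 were lost without any 1 of the 6 arrays, and Dok1 without any but PIK3CA shRNA replicate 2 (limma adjusted p of 0.0536 to 0.126 where lost). Gab1 was lost without PIK3CA shRNA replicate 1 or 3 or control shRNA replicate 1. Grb14 and Plau were lost without PIK3CA shRNA replicate 1 or 3, without control shRNA replicate 3, and also without control shRNA replicate 2 (Grb14) or 1 (Plau), at limma adjusted p of 0.0513 to 0.0686 for these 3 genes. With chromosome medians removed Gab1 (chromosome 8) stood at -0.09, Dok1 (chromosome 6) at 0.17, Ptpn11 (chromosome 5) at -0.15 and Ptpn1 (chromosome 2) at 0.28, none past the threshold. In the same setting Dok4 stood at 0.61, Grb14 at -0.57 and Plau at 0.87, all past the threshold (limma adjusted p of 0.0071 for Dok4, 0.00534 for Grb14 and 0.00996 for Plau). Median changes of brighter genes were -0.25 on chromosome 8, 0.18 on chromosome 6, -0.15 on chromosome 5 and 0.20 on chromosome 2.

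Igfbp1, the binding protein gene best known as a FOXO target in liver and next to Igfbp3 among the tested genes on chromosome 11, averaged 14.3 in PIK3CA shRNA cells and 25.4 in control shRNA cells (limma adjusted p = 0.345). Both means were near the pseudocount. Of the genes for proteases and inhibitors that act on binding proteins, Pappa (pappalysin-1) stood at 0.09 and its inhibitor genes Stc1 and Stc2 at -0.36 and 0.12, none past the threshold. Their other probe sets stood at -0.47 and -0.06 for Pappa, 0.40 for Stc1, and 0.66 and 0.52 for Stc2. None of these passed limma over all probe sets. Pappa was dim as well. Its probe set at 0.09 averaged 22.3 in PIK3CA shRNA cells and 20.1 in control shRNA cells, near the pseudocount. A small change at this brightness does not show that the gene was steady.

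**Figure D4:**
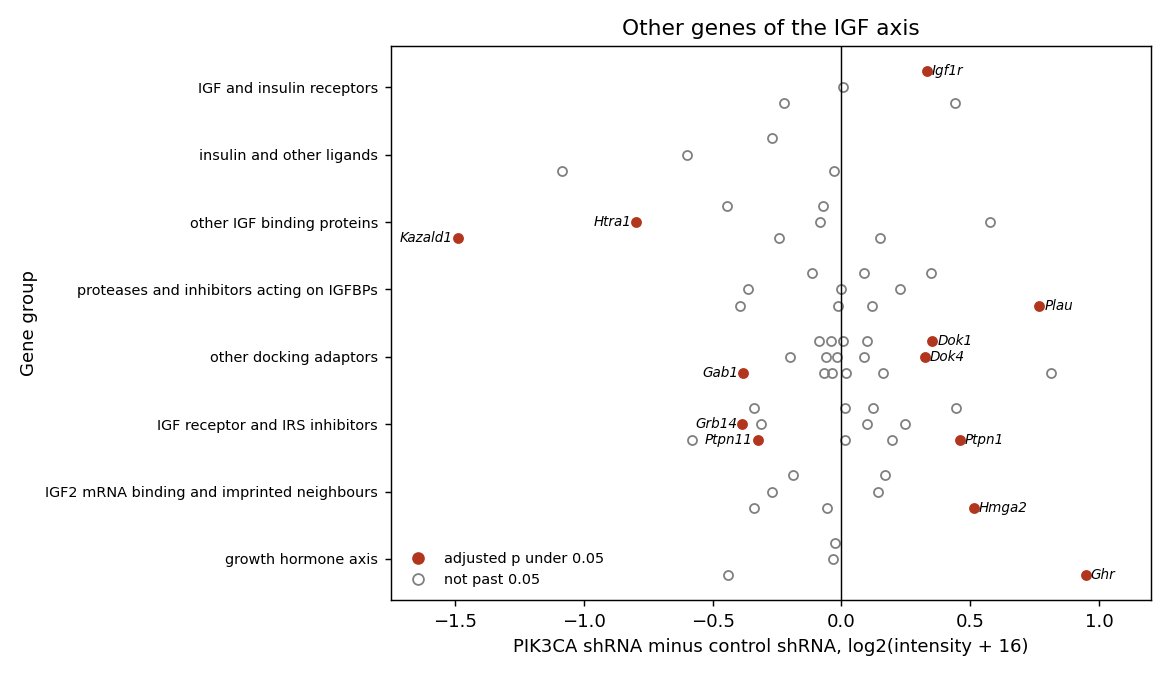
Change of each of the 66 measured genes of the wider IGF axis, as PIK3CA shRNA minus control shRNA in log2(intensity + 16), by gene group, with the vertical offset within a group for legibility only. Filled points with names passed limma at adjusted p 0.05, and run from Kazald1 at -1.49 to Ghr at 0.95.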

How the data were processed

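RNA of 6 samples was hybridised to Affymetrix arrays, per the labels' protocols. The deposited values are linear intensities, 1 per probe set and array, and every array spans 0.0359 to 17919. The authors' deposited intensities therefore share their extremes. How this was done is not given in the sources used. No detection calls came with them, and precision is limited by the number of arrays.

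Each array was scaled to the same median, then log2(intensity + 16) was taken, without 64 control probe sets. The platform annotation gave 34945 probe sets 1 symbol, 932 several and 9160 none; 0 symbols changed through gene identifiers in RefSeq (GRCm38.p6). A gene was its single-symbol probe set with the highest mean log2 value, 18193 genes in all. Printed intensities are as deposited. The test was limma 3.58.1 (R 4.3.3), two-sided and with no replicate block. The p-values were adjusted by Benjamini-Hochberg across all genes (or all single-symbol probe sets, where said), and the threshold was 0.05. Exact permutation tests used the 20 assignments of arrays. Brighter genes are those above the median mean log2 value, and neighbours the 5 tested genes on each side. The fit was tested on simulated data. Named were the family, Pik3ca, 3 receptors, the called genes of the wider list and, for likeness, 2 genes per called member; other list genes and markers were named after their values were seen. Members and lists were chosen with earlier results of these data known. Protein sequences were not used here. Figures used matplotlib 3.10.9 in Python 3.11.15.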

Additional observations from a re-analysis of the deposited data

How the results depend on the processing

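Alternatives were a replicate block, 3 other scalings, a filter on dim genes, 3 other choices of probe set, pseudocounts of 1 and 64, weights per array, a trended robust prior, a threshold of 0.01, removal of chromosome medians, and leaving out each array. By limma the family had 0 called genes of 10 with the replicate block, with the mean of probe sets and at the 0.01 threshold (1 at an unadjusted p under 0.05 in each), 0 without each single array (1 or 2 unadjusted), and 2 of 23 with all probe sets. Choosing the probe set of largest interquartile range, the 1 called gene was Igfbp5 (1.28) and not Igfbp7. Igfbp7 kept its direction in all 18 alternatives that gave it a value (0.25 to 0.48) and its call in 9. The 3 other scalings are among these 9 and gave 0.30 to 0.31. They are a weak check, because array medians already lay at 134.6 to 135.0. The wider list's count of 12 became 2 with the replicate block, 7 with the mean of probe sets, 6 with the largest interquartile range, 19 with the pseudocount of 64, 19 with the intensity trend, 5 at 0.01, and 5 to 10 without 1 array. Htra1 and Ghr kept their calls in all 18. The count over all 18193 genes, 2093, became 413 with the replicate block, 3192 with the intensity trend, 636 at 0.01, and 945 to 1138 without 1 array. Grb14 (0.0898) and Ptpn1 (-0.46) reversed when the probe set of largest interquartile range was taken, where another probe set stood for the gene. The cause was not tested for the other losses.

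The labels do not say whether replicate numbers pair the samples. Deviations from group means correlated at 0.124, -0.049 and -0.009 for numbers 1, 2 and 3. The highest correlation was 0.15, for PIK3CA shRNA replicate 2 with control shRNA replicate 3. With 3 arrays per group the deviations within a group depend on each other, so these values cannot decide whether the samples are paired. The replicate block ended the Igfbp7 call (adjusted p = 0.111) and left the wider list with Htra1 and Ghr. The dimmer Igfbp5 probe set passed with it (adjusted p = 0.0411), a setting chosen after seeing the data. Signal limits Igf1, Igf2 and Igfbp2, the dimmest genes of the family.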
